A study of Mus musculus with 19 samples.

Results

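The MHC class II genes are 10 of the 27299 genes in the expression table of sorted retinal microglia, chosen by symbol: the chain genes *H2-Aa*, *H2-Ab1* and *H2-Eb1*, the invariant chain gene *Cd74*, the transactivator *Ciita*, the peptide exchange genes *H2-DMa*, *H2-DMb1* and *H2-DMb2*, and the exchange inhibitor genes *H2-Oa* and *H2-Ob*. All 10 had a value in every sample, and the test used no filter on low values. The question was how microglia differ between eyes with laser-induced choroidal neovascularization at day 3 (CNV d3) and untreated eyes. There were 6 CNV d3 and 6 control samples of bulk RNA-seq, from mice aged 8 weeks whose strain the labels give as C57BL/6J and whose genotype the methods of the study give as Cx3cr1 GFP/+, a reporter in which 1 copy of the fractalkine receptor gene is replaced by a fluorescent protein. Lasered eyes received 6 burns, control eyes none, and from both only the central retina was used. Cells of both groups were sorted as CD45+CD11b+CX3CR1+Ly6C-Ly6G-, with low CD45 according to the methods, so the gate itself was part of what the groups share.

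MHC class II molecules are pairs of an alpha and a beta chain that carry peptides from the endosomal system to the cell surface, where CD4+ T cells recognise them. The chains fold around the invariant chain CD74, which blocks the peptide groove until cathepsins trim it down to a short remnant. DM then exchanges the remnant for other peptides, and DO holds DM back. CIITA does not bind DNA itself but joins RFX, CREB and NF-Y on the short promoter elements named X and Y, and it is the factor whose presence usually sets how much class II a cell makes. Resting microglia are known for little class II, and interferon gamma is the classical inducer.

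The promoter letters are shown because they occurred in both rising and falling genes, though not in all of them. RefSeq promoters (GRCm38.p6, 250 bases before to 50 after the start site) were at hand for 7 of the 10 genes, all but *H2-Ab1*, *Cd74* and *Ciita*. Each line below is 62 bases on the strand of the gene, with the Y box letters TGATTGG and, upstream of them, the X box letters AACNNATGATG in capitals.
H2-Aa: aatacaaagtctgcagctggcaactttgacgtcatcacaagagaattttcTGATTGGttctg
H2-Eb1: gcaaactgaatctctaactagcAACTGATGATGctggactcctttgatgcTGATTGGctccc
H2-DMb2: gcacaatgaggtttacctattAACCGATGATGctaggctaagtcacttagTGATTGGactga
H2-Oa: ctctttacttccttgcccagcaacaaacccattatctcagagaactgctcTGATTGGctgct
H2-Ob: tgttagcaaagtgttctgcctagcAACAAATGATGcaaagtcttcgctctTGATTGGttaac

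These stretches lie at chr17:34287862-34287923 on the minus strand for *H2-Aa*, and on the plus strand at chr17:34305756-34305817 for *H2-Eb1*, chr17:34145107-34145168 for *H2-DMb2*, chr17:34092284-34092345 for *H2-Oa* and chr17:34238796-34238857 for *H2-Ob*. *H2-DMb1* held both sets of letters as well, 18 bases apart, and neither of the start sites listed for *H2-DMa* held either. On either strand, the Y letters were in 7.82% of 32851 mouse promoters of this length and the X letters in 0.137%. The X letters followed within 25 bases by the Y letters on the strand of the gene occurred in 4 promoters, those of *H2-Eb1*, *H2-DMb1*, *H2-DMb2* and *H2-Ob*. The X letters are those that these 4 promoters share, with N where they differ, so the 4 genes are among the matches by construction, and no other promoter matched. Of the 4 genes, *H2-Eb1* rose, *H2-DMb1* and *H2-Ob* fell and *H2-DMb2* did not pass the test, with the values given below. *H2-Aa* and *H2-Oa* held the Y letters without this form of the X letters, and nothing about binding follows from a match or its absence.

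At CNV d3, the 3 chain genes, *Cd74* and *Ciita* rose, while *H2-DMa*, *H2-DMb1* and *H2-Ob* fell by less than the fold threshold and *H2-DMb2* and *H2-Oa* did not pass the test. Values are normalized counts, which are reads scaled by 1 factor per sample, and SE is a standard error. A gene counts as a differentially expressed gene (DEG) when its absolute log2 fold change is above 1.5 and its adjusted p from limma is under 0.05, with Benjamini-Hochberg adjustment over all 27299 genes. By this rule 5 of the 10 class II genes were increased DEG, against 3.91% of all genes tested, and 0 were decreased DEG, against 1.07%. At an unadjusted p under 0.05, 4 of the 10 were lower (8.90% of all genes), and edgeR and DESeq2 on the reads recovered from the values also gave 0 decreased DEG among them and the same 5 increased DEG. For edgeR the shares of all 27299 genes were 3.07% increased and 1.03% decreased, and for DESeq2 the shares were 5.28% and 3.33% of the 17186 genes to which it gave an adjusted p. With no minimum fold change, 3 of the 10 were lower at an adjusted p under 0.05 by limma, against 4.57% of all genes. The median log2 fold change was 1.00 over the 10 genes and 0.15 over all genes tested.

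**Figure D1:**
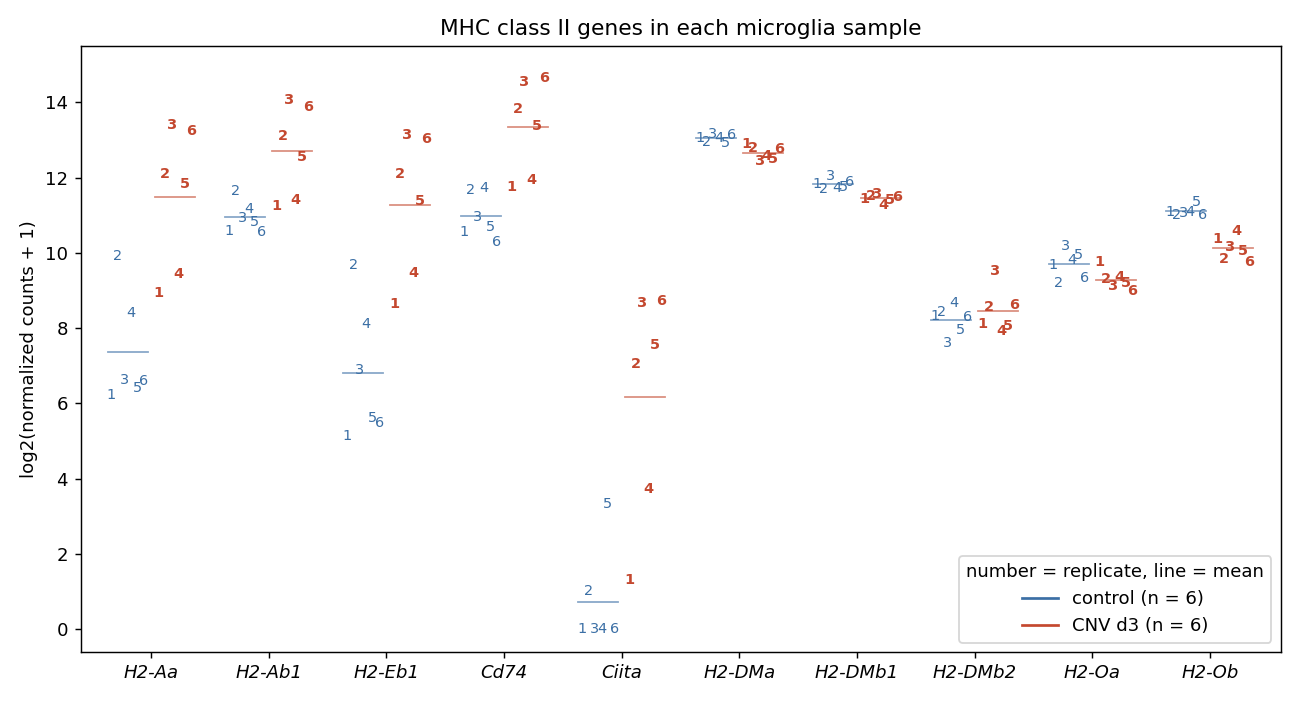
Values of the 10 MHC class II genes in each of the 12 samples, as log2(normalized counts + 1) on the vertical axis; each digit is 1 sample and gives its replicate number, in blue for control and in red for CNV d3, and short lines are group means (n = 6). The chain genes, *Cd74* and *Ciita* are spread widely over the CNV d3 samples with replicates 1 and 4 lowest, while *H2-DMa*, *H2-DMb1* and *H2-Ob* sit in narrow bands with every CNV d3 sample below every control sample.

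The chain genes lie near each other on chromosome 17 (GRCm38, Gencode M21, used for all gene positions), *H2-Ab1* from 34257689 to 34269419, *H2-Aa* from 34282744 to 34287823 on the minus strand and *H2-Eb1* from 34305867 to 34316674. *H2-Aa*, the alpha chain of the I-A molecule, had 74.1 normalized counts in the lowest control sample, a median of 96.6 and 963 in the highest, and 492, 4037 and 10826 in the same places at CNV d3. The groups overlapped, because control replicate 2 was above CNV d3 replicates 1 and 4, but the other 4 CNV d3 samples had more than any control sample. On the log2 scale it rose by 4.13 (SE 0.81, limma adjusted p = 0.00337). *H2-Eb1*, the beta chain of the I-E molecule, ran from 34.4 over a median of 82.6 to 816 in control microglia and from 397 over 3496 to 9008 at CNV d3. Here too control replicate 2 lay above CNV d3 replicates 1 and 4, and the log2 fold change was 4.47 (SE 0.87, limma adjusted p = 0.00321).

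*H2-Ab1*, whose product pairs with that of *H2-Aa*, was far higher than its partner in control microglia, with 1491, 1884 and 3223 as lowest, median and highest values against 2408, 7352 and 17115 at CNV d3. Its rise was the smallest of the 5 (log2 fold change 1.75, SE 0.43, limma adjusted p = 0.0139) and the least stable. When each of the 12 samples was left out in turn, *H2-Ab1* stayed a DEG in 5 fits, and it lost the call without control replicate 1, 5 or 6 or without CNV d3 replicate 2, 3, 5 or 6 (adjusted p up to 0.0724 and log2 fold change between 1.48 and 2.05). The other 4 increased genes stayed DEG in all 12 fits.

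Because both chains of I-A are needed for a molecule, their levels were also set side by side per kilobase of the principal transcript, 1128 bases for *H2-Aa* and 1212 for *H2-Ab1*. In control microglia the level of *H2-Aa* was a median of 6.1% of that of *H2-Ab1*, with 5.0% in the lowest sample and 32.1% in the highest, control replicate 2. At CNV d3 the median was 60.2%, with 22% in replicate 1, 27.1% in replicate 4 and between 54.1% and 69.1% in the other 4 samples. The pair was more even in the CNV d3 samples with much class II, and the groups overlapped through control replicate 2 and CNV d3 replicates 1 and 4. *H2-Eb1* per *H2-Aa* had medians of 47.0% and 57.3% in control and at CNV d3.

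*Cd74*, on chromosome 18 from 60803848 to 60812652, codes for the invariant chain, which is also the receptor of the cytokine MIF. It had 1259, 1813 and 3366 normalized counts in the lowest, median and highest control sample and 3420, 12615 and 25808 at CNV d3. It was the only one of the 5 rising class II genes whose groups did not overlap, although the gap was narrow. All CNV d3 values above all control values occurred in 4.64% of all genes. The log2 fold change was 2.37 (SE 0.47, limma adjusted p = 0.00369). Per kilobase, *Cd74* went from rank 4 among the 10 genes in control microglia, with 1540 ± 654 normalized counts per kilobase (SD, n = 6), to rank 1 at CNV d3, with 9715 ± 6802 (SD, n = 6).

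*Ciita*, on chromosome 16 from 10480059 to 10528418, codes for the transactivator itself and was close to silent in control microglia. It had 0 reads in 4 of the 6 control samples, 1 read in replicate 2 and 9 reads in replicate 5, or 9.03 normalized counts. At CNV d3 it had 1.48 normalized counts in replicate 1, 12.1 in replicate 4, 132 in replicate 2, 185 in replicate 5, 403 in replicate 3 and 418 in replicate 6. CNV d3 replicate 1, with 2 reads, was thus inside the control range and the other 5 samples were above it. A count of 0 allows up to 3 reads, between 3.01 and 5.96 normalized counts in the control samples, which were less deeply sequenced. The log2 fold change was 5.44 (SE 1.25, limma adjusted p = 0.00922), and it ranged between 3.86 and 6.78 over the alternatives tried. Per kilobase *Ciita* remained the lowest of the 10 genes in both groups.

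**Figure D2:**
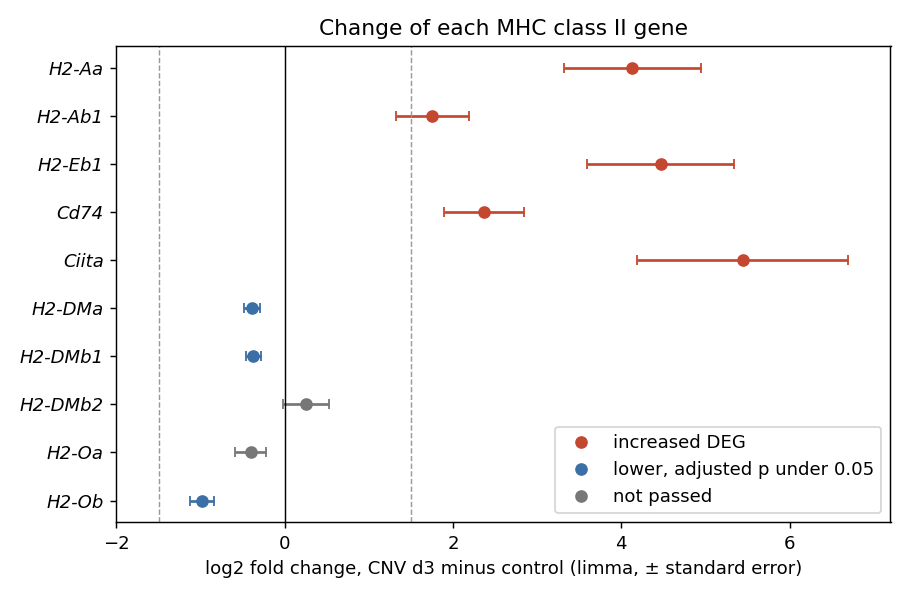
Log2 fold change of each MHC class II gene, CNV d3 minus control, from limma on log2(normalized counts + 1), with its SE (n = 6 per group); dashed lines mark an absolute value of 1.5. The 5 increased DEG lie to the right of 1.5, while *H2-DMa* at -0.39, *H2-DMb1* at -0.37 and *H2-Ob* at -0.98 are left of 0 with short error bars.

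The DM genes *H2-DMa* and *H2-DMb1* fell while the chains rose. *H2-DMa*, on chromosome 17 from 34119541 to 34139101, codes for the alpha chain of DM and had the highest level of the 10 genes per kilobase in control microglia. It had 7772, 8466 and 9230 normalized counts in the lowest, median and highest control sample and 5518, 6541 and 7575 at CNV d3. *H2-DMb1*, a DM beta chain gene from 34153072 to 34160230, had 3326, 3563 and 4228 against 2468, 2824 and 3053. In both genes every CNV d3 sample was below every control sample, which held for 2.83% of all genes. The falls were small and well within the fold threshold, with log2 fold changes of -0.39 for *H2-DMa* (SE 0.09, limma adjusted p = 0.00958) and -0.37 for *H2-DMb1* (SE 0.09, limma adjusted p = 0.0104). Both stayed under an adjusted p of 0.05 in all 12 fits with 1 sample left out. Without a variance trend in limma, the adjusted p was 0.0767 for *H2-DMa* and 0.0676 for *H2-DMb1*.

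The other beta chain gene, *H2-DMb2*, from 34143307 to 34151555, was far lower than *H2-DMb1* in every sample and did not pass the test. It had 194, 315 and 406 normalized counts in control microglia and 242, 326 and 737 at CNV d3, with a log2 fold change of 0.26 (SE 0.27, limma adjusted p = 0.585). Its highest value was in CNV d3 replicate 3, the sample that also had the most *H2-Aa*. The *H2-DMb1* and *H2-DMb2* transcripts share sequence, so that 22.7% of the 50-base stretches of *H2-DMb1* and 25.9% of those of *H2-DMb2* occur elsewhere, almost all in the other gene. With default counting, a read that maps to both is given to neither, and the split between these 2 genes is uncertain.

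*H2-Ob*, from 34238903 to 34254414, codes for the beta chain of the DM inhibitor DO and showed the clearest fall. It had 2071, 2153 and 2633 normalized counts in the lowest, median and highest control sample and 864, 1096 and 1526 at CNV d3, so the groups were far apart. The log2 fold change of -0.98 (SE 0.14, limma adjusted p = 0.00035) was the largest fall among the 10 genes. Its partner *H2-Oa*, from 34092340 to 34095234, had 582, 863 and 1171 in control and 504, 609 and 862 at CNV d3. The groups of *H2-Oa* overlapped, and its log2 fold change of -0.40 (SE 0.19, limma adjusted p = 0.189) did not pass. Some reads of *H2-Oa* and *H2-DMa* could not be assigned, since 22.8% of the exon bases of *H2-Oa* overlap *BC051537* and 10.4% of those of *H2-DMa* overlap *Brd2*.

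The order of the genes per kilobase differed between the groups. In control microglia *H2-DMa* led with 5104 ± 354 normalized counts per kilobase (SD, n = 6), followed by *H2-DMb1* with 2592 ± 241, *H2-Ab1* with 1689 ± 533 and *Cd74* with 1540 ± 654, where the last 2 did not differ beyond their spread. At CNV d3 the order was *Cd74* with 9715 ± 6802 (SD, n = 6), *H2-Ab1* with 7132 ± 5118 and *H2-Aa* with 4384 ± 3886. Then came *H2-DMa* with 3916 ± 494, *H2-Eb1* with 2535 ± 2225 and *H2-DMb1* with 1996 ± 144. The SD ranges of neighbours among these 6 genes overlapped. Within every CNV d3 sample, however, *Cd74* was above *H2-Ab1*, at 120% to 155% of it. *H2-Aa* was below *H2-Ab1* in every CNV d3 sample, at 22% to 69.1% of it. Neither *H2-Aa* nor *H2-DMa* was the higher in all CNV d3 samples. The lower places in control were held by *H2-Ob* (828 ± 79.4), *H2-Oa* (781 ± 200), *H2-Aa* (244 ± 312), *H2-DMb2* (212 ± 52.2), *H2-Eb1* (133 ± 182) and *Ciita* (0.279 ± 0.604), and at CNV d3 by *H2-Oa* (583 ± 114), *H2-Ob* (425 ± 94.8), *H2-DMb2* (267 ± 130) and *Ciita* (31.9 ± 30.5). In control, the SD ranges of *H2-Ob* and *H2-Oa* overlapped, as did those of *H2-Aa*, *H2-DMb2* and *H2-Eb1*. Within every control sample, however, *H2-Eb1* was below *H2-Aa*, at 31.0% to 80.8% of it. Per kilobase, *H2-DMa* was a median of 6378% of *H2-Aa* in control microglia and 108% at CNV d3. The groups overlapped, with 555% in control replicate 2 as the lowest control value, and with 1047% and 605% in CNV d3 replicates 1 and 4 and between 34.7% and 108% in the other 4.

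On chromosome 17, position also separated the 3 rising chain genes from the other class II genes, though not all listed neighbours. *Psmb9* and *Tap1*, between the DM genes and *H2-Ob*, were higher under the fold threshold. From the *H2-Oa* end to the *H2-Eb1* end of the class II region, the 5 DM and DO genes come before the 3 chain genes, and the falling *H2-Ob* and the rising *H2-Ab1* are neighbours among the listed genes, where *H2-Ob* ends at 34254414 and *H2-Ab1* begins at 34257689. Beyond *H2-Eb1* the listed neighbours *H2-Eb2* and *Btnl2* were increased DEG by limma too, with *H2-Ea* between them at 0 reads in all samples but 1. Neither edgeR nor DESeq2 called *Btnl2*. *H2-Ea* codes for the alpha chain that would pair with I-E beta, and C57BL/6 mice are known to lack its transcript.

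**Figure D3:**
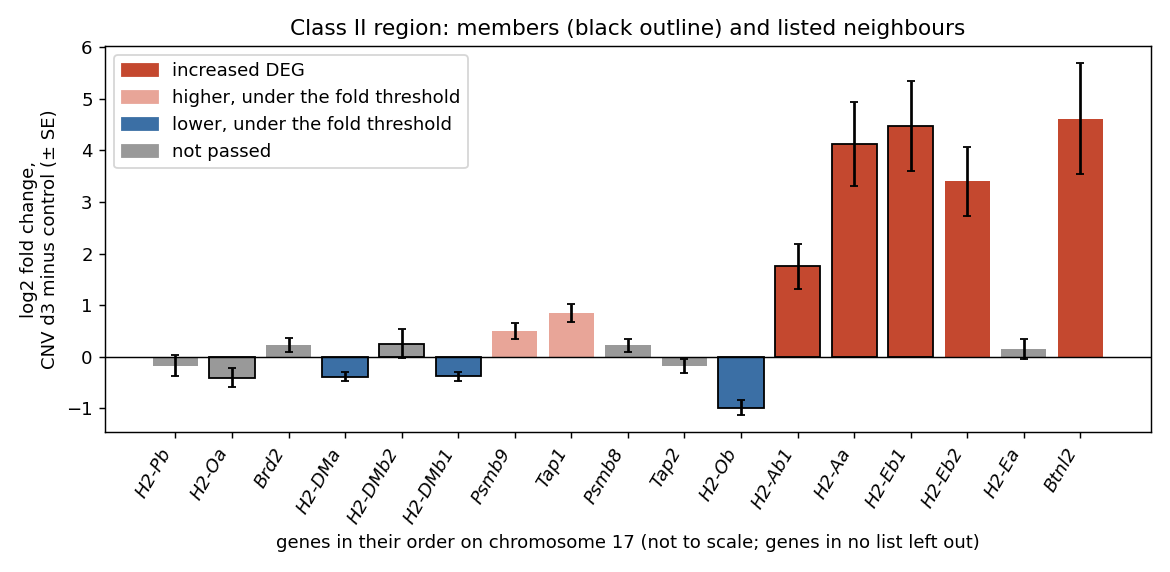
Log2 fold change (CNV d3 minus control, limma, bars with SEs, n = 6 per group) of the 8 class II genes on chromosome 17 (black outline) and 9 listed neighbours, in their order along the chromosome and not to scale. The DM and DO genes on the left are near or below 0, and *H2-Ab1*, *H2-Aa*, *H2-Eb1*, *H2-Eb2* and *Btnl2* on the right are between 1.75 and 4.61.

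The CNV d3 samples differed from each other far more in class II chains than in most genes. For *H2-Aa* the 6 samples had 492 (replicate 1), 686 (replicate 4), 3661 (replicate 5), 4414 (replicate 2), 9590 (replicate 6) and 10826 (replicate 3) normalized counts. *H2-Ab1* and *H2-Eb1* put the samples in the same order, *Cd74* exchanged only replicates 3 and 6, and *Ciita* exchanged these and replicates 2 and 5. The highest value was 22 times the lowest for *H2-Aa*, 22.7 times for *H2-Eb1*, 7.11 times for *H2-Ab1* and 7.55 times for *Cd74*. For the DM genes the same figure was 1.37 for *H2-DMa* and 1.24 for *H2-DMb1*.

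Measured as the SD of log2(normalized counts + 1) over the 6 CNV d3 samples, *Ciita* had 3.0, *H2-Aa* 1.89, *H2-Eb1* 1.87, *Cd74* 1.26 and *H2-Ab1* 1.20. Among 9684 genes with a CNV d3 mean of at least 100 normalized counts the median SD was 0.23, and these 5 class II genes had a larger SD than between 99.2% and 99.8% of them. *H2-DMb1* was at the other end, with an SD of 0.11 and a larger value than only 5.88% of these genes, and *H2-DMa* had 0.18. *H2-Ob* (0.32) and *H2-Oa* (0.27) were in between. The order of the samples was turned round in part for *H2-DMa*, *H2-Ob* and *H2-Oa*, of which *H2-Oa* did not pass the test. Replicate 1, the lowest in the chains, was highest in *H2-DMa* and *H2-Oa*, and replicate 6 was lowest in *H2-Oa* and *H2-Ob*. In *H2-DMa*, however, replicate 4 was below replicate 6, as in the chains. *H2-DMb1* followed neither order, with replicates 4 and 5 lowest and replicate 3 highest.

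**Figure D4:**
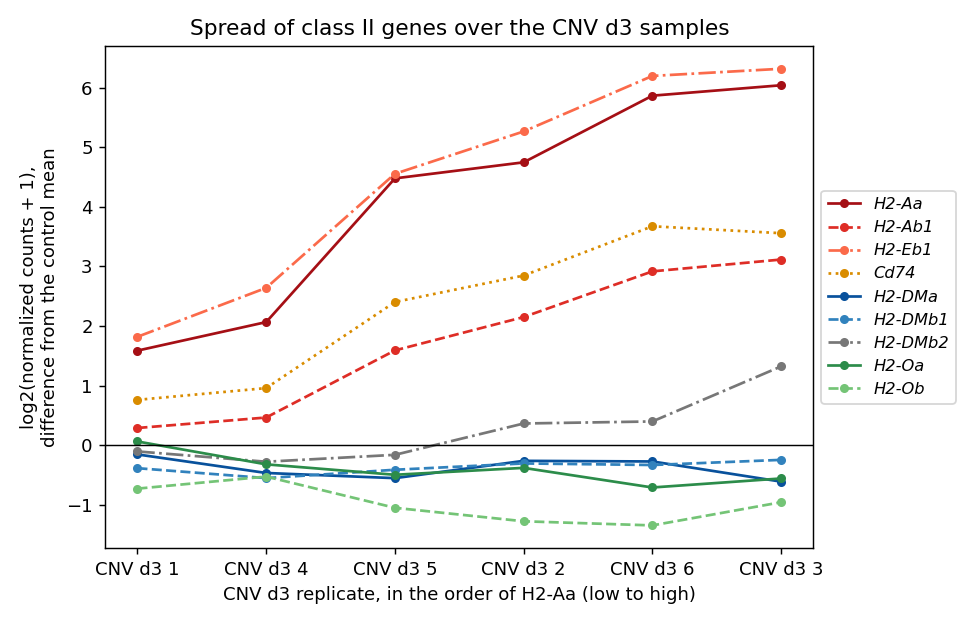
Value of 9 class II genes in each CNV d3 sample, as the difference of log2(normalized counts + 1) from the mean of the 6 control samples; samples are placed from left to right by their *H2-Aa* value, and *Ciita* is left out because most of its control values are 0. The lines of *H2-Aa*, *H2-Eb1*, *Cd74* and *H2-Ab1* are lowest at the left and reach their highest values in replicates 3 and 6 at the right, while the DM and DO genes other than *H2-DMb2* stay near or below 0.

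The control samples differed in class II as well. *H2-Aa* had 963 normalized counts in control replicate 2 and 336 in replicate 4, and between 74.1 and 98 in the other 4. *H2-Eb1* had 816 and 273 in these 2 samples and between 34.4 and 117 in the others, and *H2-Ab1* and *Cd74* were highest in the same 2 samples. *Ciita* did not follow them, with 1 read in replicate 2 and 0 in replicate 4.

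Sequencing depth and sex-linked genes also differed between samples. The control samples had between 10963178 and 22335233 reads in genes and the CNV d3 samples between 23532260 and 29523018, so depth and group went together, and the part of depth in the result was not tested. All control samples and CNV d3 replicates 1 to 3 had *Xist* reads and at most 1 read of each of 4 Y-linked genes, and CNV d3 replicates 4 to 6 had Y-linked reads and at most 1 *Xist* read. Both sets held samples low and high in class II, and the log2 fold change against the 6 controls was 4.13 with replicates 1 to 3 and 4.14 with replicates 4 to 6 for *H2-Aa*, and 2.39 and 2.34 for *Cd74*. In the same order it was 4.47 and 4.47 for *H2-Eb1*, 1.85 and 1.66 for *H2-Ab1* and 4.95 and 5.93 for *Ciita*. With 3 CNV d3 samples the rising genes lost their calls, 5 of 5 with replicates 1 to 3 and all but *Ciita* with replicates 4 to 6, while *H2-Ob* kept an adjusted p under 0.05 in both (log2 fold change -0.99 and -0.98). *H2-DMa* and *H2-DMb1* kept it with replicates 4 to 6 only (adjusted p = 0.0204 and 0.0287 from limma).

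Marker sums of conventional dendritic cells and monocytes were lowest in CNV d3 replicates 1 and 4 and highest in replicates 3 and 6, like the chains. Those of border macrophages and B cells were highest in replicate 1, at 4572 and 15132, and that of rods in replicate 4, at 13523. The part of other cell types in the result was not tested. Over 10 genes known from microglia, the summed normalized counts ran from 1105306 to 1264154 in control and from 554025 to 831815 at CNV d3. Of the 10, 8 were lower at an adjusted p under 0.05 by limma, against 4.57% of all genes. Among these were the purinergic receptors *P2ry12* and *P2ry13* as decreased DEG (log2 fold changes -1.65 and -1.82), against 1.07% of all genes. In the CNV d3 samples this sum had the reverse order of *H2-Aa*, from 831815 in replicate 1 over 778153, 695485, 638860 and 557689 in replicates 4, 5, 2 and 6 to 554025 in replicate 3. The defining microglial genes *P2ry12* and *Tmem119* had at least 44022 and 38810 normalized counts in every sample, and even in replicate 3 the microglial sum was far above those of the dendritic cell and monocyte lists, 3190 and 4464. In bulk samples, fewer cells of a type and less RNA per cell cannot be told apart.

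Of 10 conventional dendritic cell genes, 6 were increased DEG (*Flt3*, *Xcr1*, *Cd209a*, *Clec10a*, *Ccr7* and *Kmo*) and 0 decreased, against 3.91% and 1.07% of all genes. The list sum ran from 381 to 888 in control and from 683 to 3190 at CNV d3. *Cd209a*, a lectin of monocyte-derived and conventional dendritic cells, had 0 reads in all control samples and 0.739 normalized counts in CNV d3 replicate 1, 4.33 in replicate 4, 167 in replicate 5, 273 in replicate 2, 379 in replicate 3 and 510 in replicate 6. Apart from the exchange of replicates 3 and 6, this is the order of *H2-Aa*. *Flt3*, *Clec10a*, *Kmo* and *Zbtb46* were also lowest in CNV d3 replicates 1 and 4 and highest in replicates 3 and 6. *Ccr7*, *Xcr1*, *Itgae*, *Clec9a* and *Batf3* were not. *Ccr7* had 0 reads in replicate 4 and its highest value, 1376 normalized counts, in replicate 2. *Zbtb46*, a defining factor of conventional dendritic cells, had 468 and 345 normalized counts in control replicates 2 and 4, the controls with most *H2-Aa*. It had no more than 111 in the other controls and at most 225 at CNV d3, and it did not pass the test between groups. *Zbtb46* was singled out after its values had been seen. *Flt3* was also highest among the controls in replicates 2 and 4, at 8.10 and 18.3. *Xcr1*, *Clec9a*, *Cd209a*, *Clec10a*, *Ccr7* and *Kmo* had 0 reads in both. *Batf3* was highest in control replicate 3 and *Itgae* in control replicate 4.

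Of 10 monocyte genes, 6 were increased DEG, against 3.91% of all genes, and the sums were 224 to 1105 in control and 1123 to 4464 at CNV d3. *Ly6c2*, a gene of the Ly6C antigen that the gate excludes, had 0 reads in the control samples and between 1.73 and 25.1 normalized counts at CNV d3. Among the 10 genes of border and perivascular macrophages, which are also known to carry class II, 2 were increased DEG, against the same 3.91%. The sums were 2634 to 4377 in control and 3240 to 4572 at CNV d3. B cells, which carry class II and DO, had 6 genes with values, and none passed the test in either direction. Among them *Cd79a* had at most 30.4 normalized counts, whereas *Ighm* had between 9390 and 13316 in all samples of both groups. T cell genes summed to at most 38.5 and neutrophil genes to at most 22.3 normalized counts in any sample, and rod photoreceptor genes, with sums of 683 to 13523, had 0 calls.

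**Figure D5:**
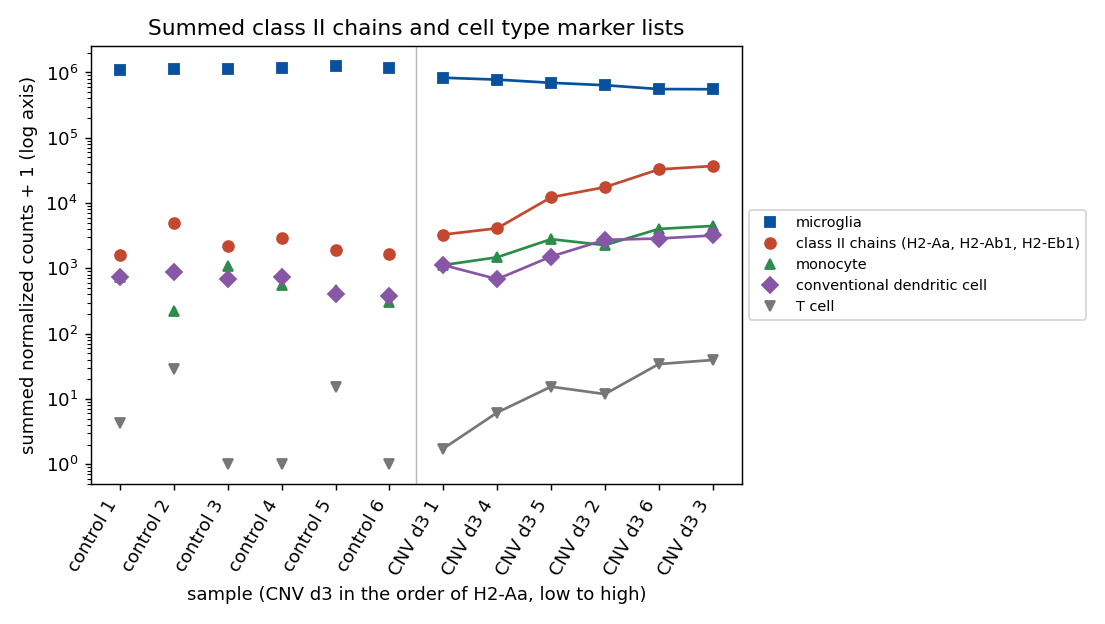
Summed normalized counts + 1 (log axis) of the 3 class II chain genes and of marker lists of 4 cell types in each control and CNV d3 sample, the CNV d3 samples in the order of *H2-Aa*. In CNV d3 replicates 1 and 3, the lowest and the highest in *H2-Aa*, the chain sum was 3296 and 36949, the monocyte sum 1123 and 4464, the dendritic cell sum 1124 and 3190 and the microglia sum 831815 and 554025.

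Beyond the 10 genes, 50 genes of the class II pathway had values. Of these, 3 were increased DEG and 0 decreased DEG by limma, against 3.91% and 1.07% of all genes. With no minimum fold change 12 were higher, against 8.29% of all genes, and 6 lower, against 4.57%. Among the 9 other genes of the class II region, 4 were higher. *H2-Eb2*, a further beta chain gene, had 0 or 1 read in each control sample and 4.18 to 50.1 normalized counts at CNV d3, so its fitted fold change depends on the pseudocount (limma adjusted p = 0.00307). *Btnl2*, a butyrophilin that dampens T cell activation, had 0 reads in 5 control samples, 85.3 normalized counts in control replicate 4, and between 29.4 and 76.1 at CNV d3. By limma it was an increased DEG (log2 fold change 4.61, SE 1.07), but its highest value was a control and edgeR did not call it (adjusted p = 0.352).

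Between the DM genes and *H2-Ob* lie genes of class I antigen processing. The peptide transporter *Tap1* rose from 2734 ± 832 to 4816 ± 753 normalized counts (SD, n = 6; log2 fold change 0.85, SE 0.17, limma adjusted p = 0.00374). *Psmb9*, an immunoproteasome subunit whose gene overlaps *Tap1*, rose from 1514 ± 338 to 2126 ± 380 (log2 fold change 0.50), but lost this call in 10 of 12 fits with 1 sample left out. *Psmb8* and *Tap2* did not pass (0.22 and -0.18).

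None of the 7 factors that assemble on class II promoters passed the test in either direction by limma. These are the RFX subunits *Rfx5*, *Rfxank* and *Rfxap*, *Creb1* and the NF-Y subunits. *Rfx5* had a log2 fold change of -0.49 by limma (adjusted p = 0.114) and -0.47 by DESeq2 (adjusted p = 0.0311), and edgeR gave an adjusted p of 0.173. *Creb1*, the highest of the 7 in control, had 1884 ± 459 and 2139 ± 214 normalized counts (SD, n = 6) and *Nfyc* 576 ± 95.6 and 545 ± 82.0. The median log2 fold change of the 7 was -0.08, whereas *Ciita*, which acts on them, had at most 9 reads in any control sample and between 132 and 418 normalized counts in 4 of the 6 CNV d3 samples.

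Of 12 genes for signals upstream of *Ciita*, 1 rose and 2 fell, against 8.29% and 4.57% of all genes. The kinase *Jak2*, which relays interferon gamma, rose from 880 ± 272 to 1490 ± 199 normalized counts (SD, n = 6; log2 fold change 0.82, limma adjusted p = 0.0161), while the receptor chain *Ifngr1* fell from 32898 ± 3409 to 23979 ± 5267 (log2 fold change -0.48, limma adjusted p = 0.0211). The myeloid factor *Spi1*, also called PU.1, fell from 8345 ± 464 to 6510 ± 865 (log2 fold change -0.37, limma adjusted p = 0.0129). *Irf8*, its partner in microglia, had 18944 ± 1379 and 15908 ± 1953 and did not pass, although all its CNV d3 values were below all control values. With 1 sample left out, *Spi1* kept its call in 12 of 12 fits, *Jak2* in 8 and *Ifngr1* in 4.

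Enzymes that process antigen and the invariant chain split. *Ifi30*, the thiol reductase GILT, rose, with all CNV d3 samples above all controls, from 1500 ± 53.0 to 3236 ± 792 normalized counts (SD, n = 6; log2 fold change 1.07, SE 0.14, limma adjusted p = 0.000205). The cathepsins *Ctsb* and *Ctsl* rose by less (log2 fold changes 0.51 and 0.40), also without overlap of the groups. *Ctss*, the cathepsin that makes the last cut in the invariant chain of most antigen-presenting cells, fell from 367164 ± 26290 to 279840 ± 51586 (log2 fold change -0.41, limma adjusted p = 0.0183), a call kept in 7 of 12 fits with 1 sample left out. In the CNV d3 samples *Ctss* was highest in replicate 1 and lowest in replicate 3, the lowest and the highest sample of *H2-Aa*. *Ctsd* did not pass (-0.15).

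*Marchf1*, the ubiquitin ligase that removes class II from the cell surface, fell from 5231 ± 1366 to 3238 ± 349 normalized counts (SD, n = 6; log2 fold change -0.65, limma adjusted p = 0.0132; 9 of 12 fits with 1 sample left out), and its relative *Marchf8* did not pass (0.47, limma adjusted p = 0.119). Of 6 costimulatory genes, *Cd86* fell from 11238 ± 835 to 8589 ± 926 with no overlap of the groups (log2 fold change -0.39, limma adjusted p = 0.00633). *Cd80* fell too (-0.80), but kept its call in only 2 of 12 fits with 1 sample left out. *Icosl* rose (0.38), with its call kept in 5 fits. *Cd40* was an increased DEG by limma (3.95), with 0 to 111 normalized counts in control and 74.6 to 168 at CNV d3. Control replicate 1 was above CNV d3 replicates 1 and 5, the call was kept in 2 of 12 fits and edgeR did not make it (adjusted p = 0.177).

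On the side of CD74 as a receptor, its ligand *Mif* rose from 548 ± 107 to 953 ± 162 normalized counts (SD, n = 6; log2 fold change 0.80, limma adjusted p = 0.00466), with all CNV d3 samples above all control samples and the call kept in 12 of 12 fits. Its signalling partner *Cd44* rose from 1152 ± 345 to 1749 ± 299 (log2 fold change 0.64, limma adjusted p = 0.0364), a call kept in 3 of 12 fits.

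The genes that followed the chains most closely over the 6 CNV d3 samples were found by Pearson correlation with the mean log2(normalized counts + 1) of *H2-Aa*, *H2-Ab1*, *H2-Eb1* and *Cd74*, among 9674 genes with a CNV d3 mean of at least 100. They were *Itgal* (0.997), *Vcp* (0.997), *Ogdh* (0.996), *Napsa* (0.995) and *Emilin2* (0.994). In all, 121 genes were over 0.95 across these 6 samples, which share their sorting and library preparation. *Itgal*, the alpha chain of the leukocyte integrin LFA-1, ran from 566 normalized counts in replicate 1 to 1512 in replicate 3 and was an increased DEG (log2 fold change 2.30). *Napsa*, an aspartic protease, ran from 48.0 in replicate 1 to 716 in replicate 6 and did not pass between groups. *Emilin2* was an increased DEG (4.72). *Vcp* ran from 3214 to 4170 normalized counts over the CNV d3 samples and *Ogdh* from 4315 to 5488.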

How the data were processed

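Bulk RNA-seq was analysed for 6 CNV d3 and 6 control samples of FACS-sorted retinal microglia. Samples were grouped by the treatment and the title in the labels, and the parts listed for 1 sample (all controls and CNV d3 replicate 4) counted as 1 sample. Nothing says that samples came from separate animals, so p-values measure the spread between these samples. Total RNA was amplified as cDNA (12 to 14 PCR cycles) and sequenced as single reads of 50 cycles. The authors aligned reads with STAR 2.7.2b to GRCm38.p6, merged both flow cells, counted with featureCounts 1.6.4 at default parameters, removed genes with 0 reads in all samples and divided the counts by DESeq2 1.22.2 size factors (R 3.5.3, FastQC 0.72). The deposited values are thus a normalized signal, here called normalized counts, and not raw counts. The authors' columns of group means, fold changes and p-values were not used.

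All values were whole multiples of the value of 1 read (tolerance 0.01 read), so reads were recovered. Total reads per sample are given in the report, and a count of 0 allows up to 3 reads, for counting error only. Genes were tested with limma 3.58.1 (R 4.3.3, variance trend) on log2(normalized counts + 1), for all 27299 genes together. For low genes the limma log2 fold change was below that of edgeR in some, such as *Ciita* (5.44 against 6.64). It was above that of edgeR in others, such as *Btnl2* (4.61 against 1.87). edgeR 4.0.16 (quasi-likelihood, TMM) and DESeq2 1.42.0 were run on the recovered reads. The scripts were tested on simulated data. Other pseudocounts (0.5 and 5), TMM factors, a filter (at least 10 normalized counts in at least 6 samples), no variance trend, a replicate block and each sample left out were tried. The members and lists were chosen with earlier results of these data known. Named pathway genes are, per list, those that passed (at most 4 by fold change) and the 2 highest in control. Replicate numbers did not pair the samples (correlation of deviations between -0.05 and 0.07). Within a group no libraries agreed within sampling noise (chi-square per degree of freedom at least 32.5). Promoters came from RefSeq (GRCm38.p6) and gene positions and transcript lengths from Gencode M21.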

Additional observations from a re-analysis of the deposited data

Results flagged for a closer look

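Over the 10 class II genes in 2 groups of 6 samples, 20 sets of values were searched for a sample far from the others (gap to the nearest sample as a share of the whole range of the group), and 5 were found. For independent, normally distributed values, chance gives about 1 such sample in 20 sets. These counts were skewed and several of the genes varied together, so the 5 cannot be set against that rate. Control replicate 2 stood apart with high *H2-Aa* (0.705) and high *H2-Eb1* (0.695), which are the same sample and the same direction. Control replicate 5 stood apart with high *Ciita* (0.888), which rests on 9 reads, and with high *H2-Ob* (0.810), where 2633 normalized counts compare with 2178 in the next sample. Among the CNV d3 samples, replicate 3 stood apart with high *H2-DMb2* (0.706), at 737 normalized counts against 388 in the next sample. Without control replicate 2, the log2 fold changes of *H2-Aa* and *H2-Eb1* were 4.64 and 5.04, and without CNV d3 replicate 3 that of *H2-DMb2* was 0.04.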

How the results depend on the processing

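Of the 10 class II genes, 5 were increased DEG with TMM factors, with a pseudocount of 0.5 or 5, without a variance trend, by edgeR, by DESeq2 and with the replicate block (5 increased and 0 decreased among the class II genes, 3 and 0 among the 50 pathway genes). The block changed no call of a class II gene, and the replicate numbers do not pair the samples (1 of 6 CNV d3 samples correlated best with its own number). A filter on low values removed *Ciita* and left 4. Leaving out 1 sample gave 4 or 5 increased and 0 decreased DEG among the class II genes, and 2 or 3 increased and 0 decreased among the pathway genes, where *Cd40* was the gene lost. The median SD of the 10 genes over the CNV d3 samples was 0.90, and between 0.73 and 0.99 with 1 of these samples left out. With no minimum fold change, 3 class II genes and 6 pathway genes were lower and 12 pathway genes higher. Of the 3 increased pathway genes, 1 was called by edgeR and 1 by DESeq2. With CNV d3 replicates 1 to 3 only, or 4 to 6 only, chosen after the data had been seen, 0 and 1 class II genes and 1 and 1 pathway genes were increased DEG with fewer samples tested, and *H2-DMb2* turned to -0.016 with replicates 4 to 6.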
